A study of Mus musculus with 81 samples.

Results

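Expression of 9 genes of the red cell lineage was followed across all sorted populations of the study: the globin genes Hbb-bh1, Hbb-y, Hba-x and Hbq1b, and the erythroid genes Slc4a1, Klf1, Trim10, Sptb and Epb42. They were chosen as the listed symbols that have a probe naming no other gene, out of 22180 genes with such a probe. All 9 had exactly 1 probe of this kind, and all 9 were among the 17099 genes tested. A gene was tested when its log2 signal exceeded 3.04, the median of all deposited values, in 2 or more arrays. That value is used below as a floor, and a signal under it is treated as not distinguishable from the lower part of the table.

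Haemoglobin is built from alpha-type and beta-type globin chains around heme, and mouse embryos use embryonic chains before the adult ones. Hbb-bh1 and Hbb-y encode embryonic beta-type chains and Hba-x encodes the embryonic alpha-type chain zeta. These chains are the mark of the primitive red cells that form in the yolk sac. Hbq1b encodes a theta globin of the alpha cluster. Slc4a1 encodes band 3, the anion exchanger of the red cell membrane. Sptb encodes the beta spectrin of the membrane skeleton, and Epb42 encodes protein 4.2, which binds band 3. Klf1 is a transcription factor of red cell precursors and Trim10 a RING-domain protein of maturing erythroblasts. The yolk sac is the first site of blood formation in the mouse, and the fetal liver later becomes the main site of red cell production. Macrophages of the fetal liver lie within islands of maturing erythroblasts.

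RNA was measured on arrays in 80 samples of sorted mouse cells in 27 groups, 41 samples from 14 wild-type groups and 39 from 13 groups in which Irf8 was knocked out. Irf8 encodes a transcription factor that acts in myeloid cells. Groups held 3 samples each, apart from the 2 of E14 kidney F4/80high macrophages in the wild type. The wild-type groups were erythro-myeloid progenitors of the yolk sac at E8, and the yolk sac progenitor populations A1 and A2 at E9.5. At E14 they were microglia, Kupffer cells (the resident macrophages of the liver), liver CD11bhigh macrophages, and kidney F4/80high and CD11bhigh macrophages. At 6 weeks the same 5 tissue populations were taken with Langerhans cells of the skin. The 13 knockout groups match all of these other than the E8 progenitors. The labels give no strain, knockout allele or gate definition, though some titles carry undefined codes (R3, R4 or R5), and the titles of wild-type Langerhans samples carry GFP+ while those of the knockout do not. In 3 of the E14 liver groups, both wild-type ones and knockout CD11bhigh, several descriptions repeat a replicate number, and the titles were used to number the samples. The labels do not say which samples came from separate animals, so p-values measure the spread between samples, which may be technical.

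Array medians ran from 2.94 to 3.20 on the log2 scale, so the arrays were on a like scale, and precision is limited by how many arrays there are. The Irf8 probe was called lower in 4 of the 13 knockout populations and had a lower mean in 9. Its largest difference was in E14 liver CD11bhigh macrophages, with knockout samples at 5.19 to 6.43 against 8.67 to 8.88 in the wild type. In E14 Kupffer cells the knockout samples ran from 8.12 to 8.76 against 8.52 to 8.71, and in A1 from 5.90 to 7.07 against 6.26 to 7.05. The position of the probe relative to the deleted part was not given in the sources used here, and an unchanged signal checks nothing about those labels. Knockout and wild type below are the genotypes that the labels give. Replicate 2 of the knockout A2 population stood apart in its globin signals, and results that rest on it are given with and without it. The adult alpha- and beta-globin genes could not be followed, since their 5 probes each name several genes.

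Sequence immediately upstream of the start of transcription is shown for 4 members, because the 2 alpha-type globins Hba-x and Hbq1b lie in the same cluster on chromosome 11 and yet had different patterns over the samples. Hbb-y is the member that was high in most embryonic groups, and Epb42 is a membrane gene of the other pattern. The 250 bases before the start, 5′ to 3′ on the gene's own strand, are from RefSeq on GRCm38.p6. Capitals mark matches on either strand to a GATA motif (GATA with A or T before it and A or G after it), a CACCC-type motif (CCNCNCCC) or CCAAT. The windows are chr7:103853208-103853457 on the minus strand for Hbb-y, chr11:32276350-32276599 on the plus strand for Hba-x, chr11:32286714-32286963 on the plus strand for Hbq1b and chr2:121036878-121037127 on the minus strand for Epb42.
Hbb-y: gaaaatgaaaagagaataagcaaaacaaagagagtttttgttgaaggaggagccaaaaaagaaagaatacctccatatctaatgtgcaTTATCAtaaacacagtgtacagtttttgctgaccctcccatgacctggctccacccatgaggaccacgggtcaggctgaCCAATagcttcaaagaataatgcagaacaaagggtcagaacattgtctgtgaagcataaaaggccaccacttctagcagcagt
Hba-x: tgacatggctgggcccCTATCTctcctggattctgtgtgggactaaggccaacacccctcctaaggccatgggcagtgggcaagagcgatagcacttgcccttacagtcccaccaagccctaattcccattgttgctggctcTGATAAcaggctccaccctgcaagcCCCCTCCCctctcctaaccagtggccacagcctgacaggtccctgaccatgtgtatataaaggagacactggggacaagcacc
Hbq1b: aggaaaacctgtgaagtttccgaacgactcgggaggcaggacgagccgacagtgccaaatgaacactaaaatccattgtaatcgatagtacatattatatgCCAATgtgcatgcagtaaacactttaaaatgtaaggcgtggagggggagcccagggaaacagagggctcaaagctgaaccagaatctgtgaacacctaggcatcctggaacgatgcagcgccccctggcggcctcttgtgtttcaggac
Epb42: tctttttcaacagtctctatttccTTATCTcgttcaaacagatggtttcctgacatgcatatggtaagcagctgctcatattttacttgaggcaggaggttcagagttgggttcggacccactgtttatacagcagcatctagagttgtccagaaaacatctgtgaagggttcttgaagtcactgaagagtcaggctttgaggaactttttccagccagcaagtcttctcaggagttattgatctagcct

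RefSeq promoter windows were matched for 7 of the 9 members, without Hbb-bh1 and Slc4a1. For Trim10 the window lies partly inside the gene's annotated extent. A GATA match stood in 5 of these 7 windows (Hbb-y, Hba-x, Klf1, Trim10 and Epb42), against 26.5% of 32851 windows of this length over all genes. A CACCC-type match stood in 2 of 7, Hba-x and Sptb, against 45.9% of all windows, and CCAAT in 4 of 7, against 33.9%. The Hba-x window held 2 GATA matches and the Hbq1b window none. The TGATAA match of Hba-x lay 108 to 103 bases before the start, and the match of Hbb-y 162 to 157 bases before it. No match of a motif overlapped a match of another in these windows. These are matches of letters and say nothing of binding.

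Across the 27 groups the members followed 2 profiles, described here without a test. The embryonic globins Hbb-bh1, Hbb-y and Hba-x were above the floor in E8 progenitors, in both E9.5 populations and in much of E14. Hbq1b, Slc4a1, Trim10, Sptb and Epb42 were high in E8 progenitors, in E14 Kupffer cells and, at lower level, in E14 liver CD11bhigh macrophages. Klf1 shared this second profile and was also above the floor in A1. Over group means, Hbb-y and Hba-x had a Pearson correlation of 0.962, Hbb-bh1 and Hba-x of 0.862, and Hbb-bh1 and Hbb-y of 0.787 (27 group means). Within the other 6 genes the correlations ran from 0.861 (Slc4a1 with Klf1) to 0.983 (Trim10 with Epb42). Between the embryonic globins and those 6 genes they ran from 0.497 to 0.752. The points share arrays and stages, and the high values of E8 and E14 liver set much of each correlation.

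**Figure D1:**
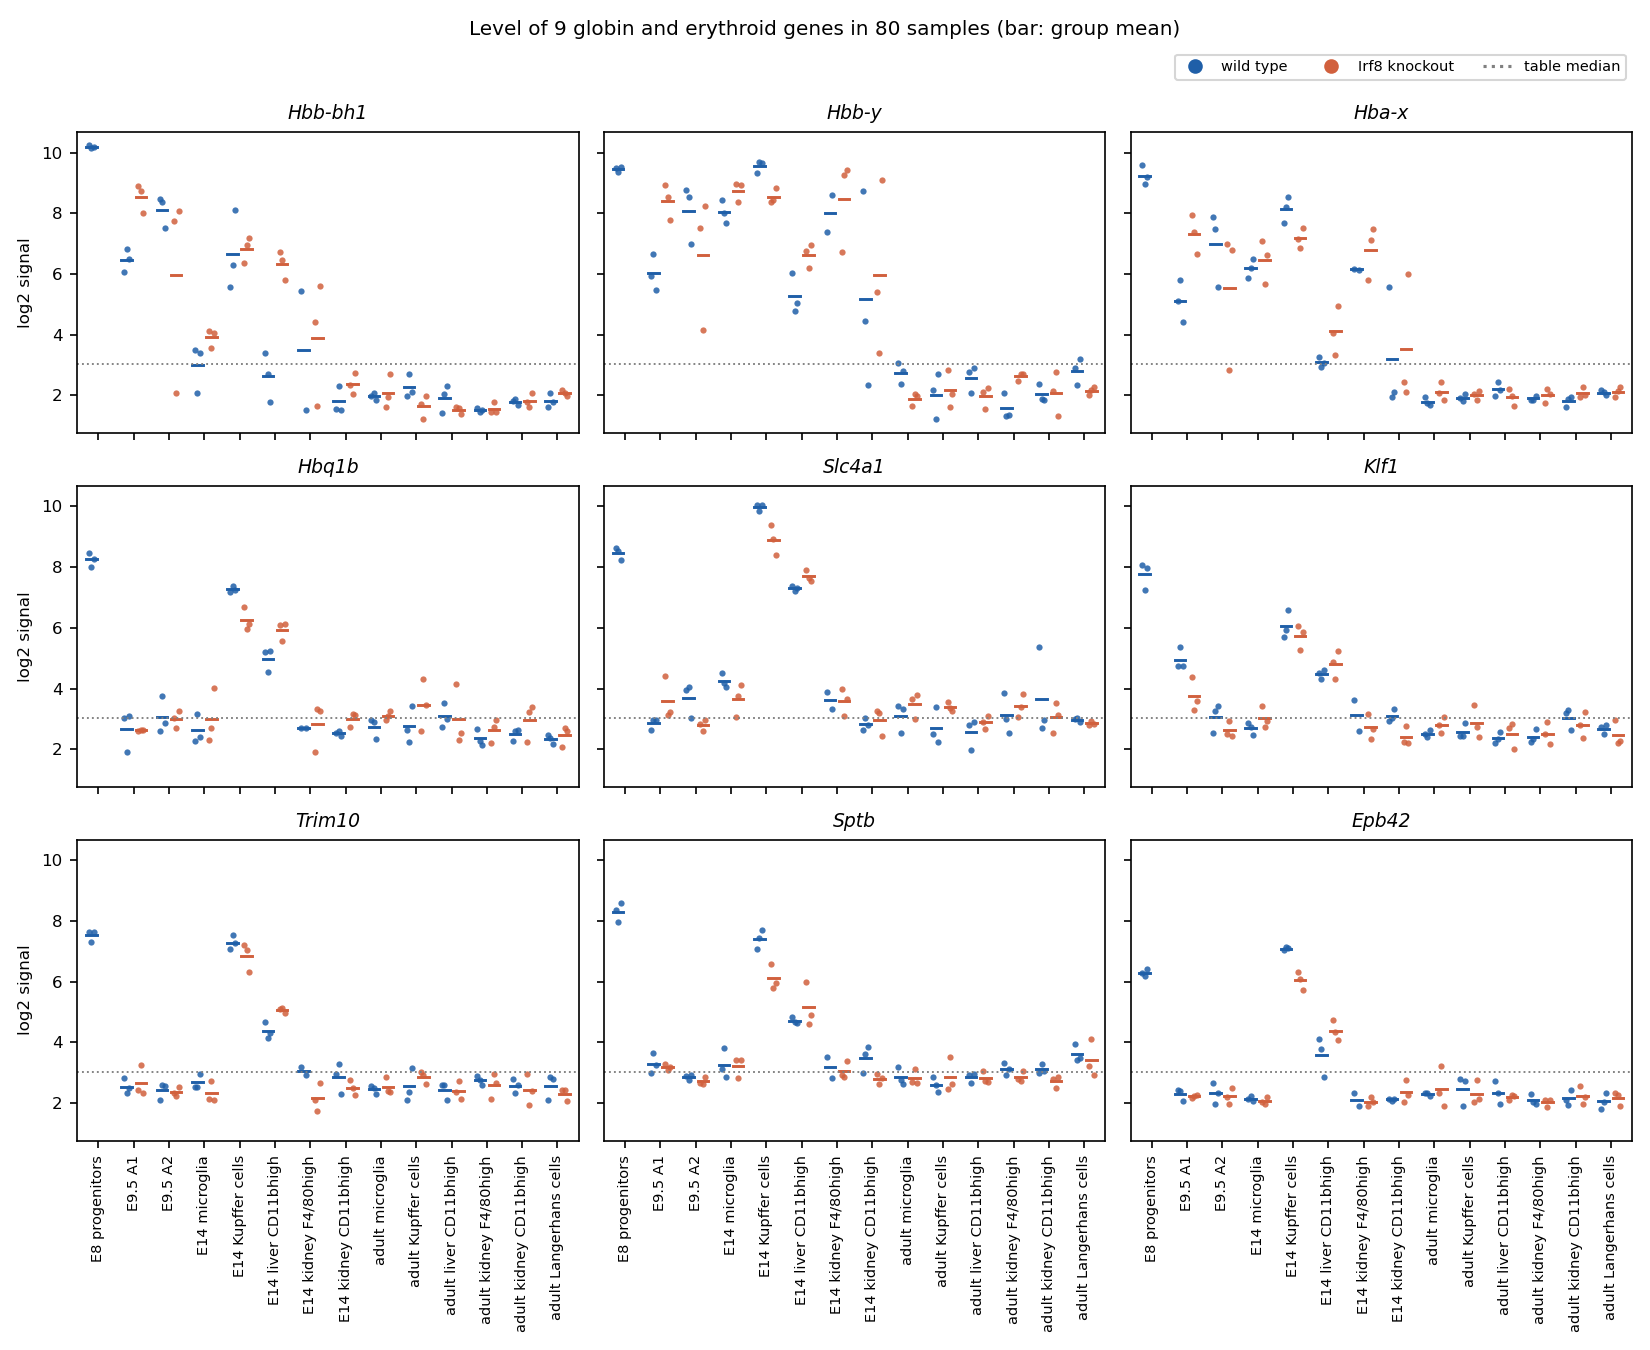
Log2 signal of each of the 9 genes (y axis) in every sample, by population (x axis), with wild-type samples in blue and Irf8 knockout samples in orange. Points are samples, short bars are group means, and the dotted line is the table median of 3.04; the 36 adult samples lie around or below it, with a highest value of 5.37 for Slc4a1.

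Every sample was above the floor in 14 groups for Hbb-y, 11 for Hba-x and 8 for Hbb-bh1. The same count was 12 groups for Slc4a1, 7 for Klf1, 7 for Sptb, 5 for Hbq1b, 5 for Trim10 and 4 for Epb42. The 5 groups of Hbq1b and Trim10 were E8 progenitors and the 4 groups of E14 liver, both genotypes of Kupffer cells and of CD11bhigh macrophages. When groups were ordered by mean, most neighbours could not be separated: of 26 neighbouring pairs per gene, the samples of 1 pair did not overlap for Hbb-y and Klf1, of 2 for Hbb-bh1, Hba-x and Epb42, of 3 for Trim10 and Sptb, and of 4 for Hbq1b and Slc4a1. For Hbq1b and Slc4a1 all of these gaps lay among E8 progenitors and the E14 liver groups or between those groups and the rest.

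**Figure D2:**
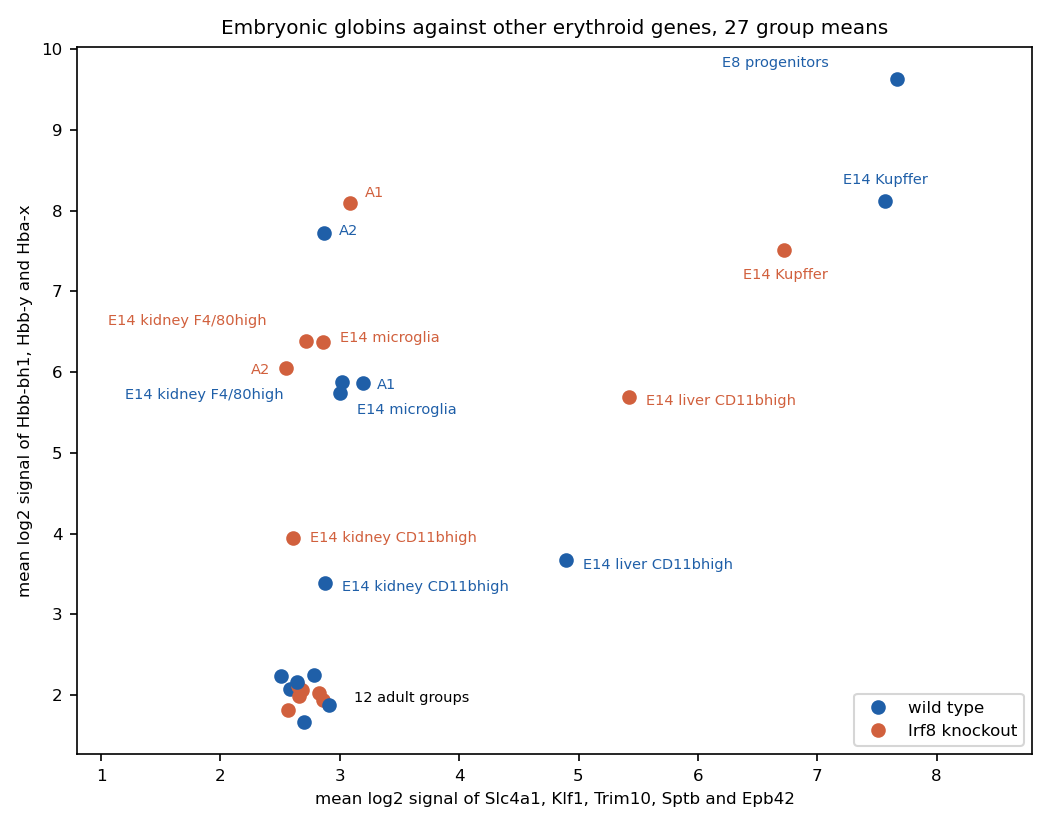
Group means of the 3 embryonic globins (y axis, mean log2 signal of Hbb-bh1, Hbb-y and Hba-x) against those of 5 erythroid genes (x axis, mean log2 signal of Slc4a1, Klf1, Trim10, Sptb and Epb42), with 1 point per group, wild type in blue and knockout in orange. E8 progenitors stand at 9.63 and 7.67, wild-type E14 Kupffer cells at 8.12 and 7.57, while knockout A1 stands at 8.09 and 3.09.

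The E8 progenitors carried both profiles together. Hbb-bh1 read 10.23, 10.15 and 10.17 on the log2 scale in the 3 samples, Hbb-y 9.49, 9.36 and 9.51, and Hba-x 9.58, 8.97 and 9.18. Hbq1b read 8.48, 8.00 and 8.27. These 3 samples were the highest of all 80 for Hbb-bh1, Hba-x and Hbq1b, and for Hbb-y they lay within the range of wild-type E14 Kupffer cells. Among the membrane genes, Slc4a1 read 8.62, 8.53 and 8.25, Sptb 8.36, 7.97 and 8.59, and Epb42 6.28, 6.18 and 6.42. Klf1 read 8.07, 7.25 and 7.97 and Trim10 7.63, 7.30 and 7.64. Klf1 and Sptb had their highest samples of the study here, whereas Epb42 was lower in all 3 samples than in any wild-type E14 Kupffer sample.

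The label of the E8 group was read against marker lists. Of 12 macrophage markers, 4 were above the floor in all 3 samples and only Itgam in none, and the list averaged 3.30 to 3.45. Csf1r averaged 3.31, Adgre1 2.53 and Ptprc, the pan-leukocyte gene for CD45, 2.68. Of 11 progenitor markers, 9 were above the floor in every sample and Flt3 and Mecom in none, and the list averaged 5.23 to 5.40, against 7.12 to 7.38 in A1. Kit averaged 6.73, Cd34 6.56 and Gata2 4.22. Endothelial markers averaged 5.11 to 5.40, with 10 of 12 above the floor in every sample. Of 14 erythroid transcription factors and receptor, 12 were above the floor in every sample and Zbtb7a in none. That list averaged 6.00 to 6.28, against 6.33 to 6.42 in wild-type A1. In it the erythroid regulator Gata1 averaged 7.84 and Epor, the erythropoietin receptor, 8.01. So in these 3 samples the macrophage list averaged near the floor. The list of erythroid factors averaged above it, but not above its level in A1. Markers of mature macrophages do not test the myeloid part of a progenitor label.

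From E8 progenitors to A1 in the wild type, all 9 members fell, where 22.7% of all genes changed. The members were chosen with earlier results of these data known, so this count and its p-values are description. Slc4a1 fell by 5.62 ± 0.38 (limma log2 difference ± SE, adjusted p = 7.07e-20), Hbq1b by 5.57 ± 0.38, Sptb by 5.0 ± 0.28, Trim10 by 4.98 ± 0.27 and Epb42 by 3.996 ± 0.253. In A1, means of Hbq1b, Slc4a1, Trim10 and Epb42 were below the floor. The embryonic globins fell as well but stayed above the floor in every A1 sample: Hba-x fell by 4.14 ± 0.66, Hbb-bh1 by 3.73 ± 0.74 and Hbb-y by 3.42 ± 0.83 (adjusted p = 0.000894, the highest of the 9). Klf1 fell by 2.81 ± 0.30 and remained above the floor in every A1 sample. The samples of the populations did not overlap for any member (40.5% of all genes did not), and all 9 calls held when any 1 of the 6 samples was left out.

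Other genes on lists of red cell formation fell at the same step. These lists are not specific to red cells. In wild-type adult microglia 12 of 13 heme and iron genes were above the floor in every sample, and 10 of 17 other red cell proteins. Of 13 genes of heme synthesis and erythroid iron supply 12 fell and none rose, with a median of -2.31 against -0.06 over all genes. Examples are the mitochondrial iron importer Slc25a37, which fell by 3.25 ± 0.22, Uros by 3.06 ± 0.23 and Abcb10 by 3.39 ± 0.27. Of 15 other membrane and skeleton genes 11 fell and 1 rose, among them Ermap, which fell by 4.45 ± 0.27, the adducin gene Add2 by 4.19 ± 0.26 and the ankyrin gene Ank1 by 3.81 ± 0.24. Of 17 other red cell proteins 12 fell, including Hemgn by 4.14 ± 0.30, Blvrb by 3.64 ± 0.21 and Mgst3 by 3.40 ± 0.28. The 14 erythroid transcription factors and receptor divided, with 4 lower and 3 higher. Epor fell by 3.58 ± 0.30, while Gata2, a factor of early progenitors, rose by 3.82 ± 0.39 and Bcl11a by 3.81 ± 0.26. Both other globins with a probe of their own fell, the beta-cluster gene Hbb-bh2 by 4.76 ± 0.24 and Hbq1a by 2.04 ± 0.36. Hbq1a is a close copy of Hbq1b, so signals of the pair may not be separate. At the same step all 12 macrophage markers rose, 9 of 11 progenitor markers rose and 8 of 12 endothelial markers fell. In sorted samples fewer cells of a type and less RNA per cell cannot be told apart.

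In A1 the knockout had higher values of the embryonic globins, and Hba-x passed the test. Hba-x read 7.93, 7.38 and 6.65 in the knockout and 5.11, 5.80 and 4.41 in the wild type, and rose by 2.22 ± 0.66 (limma, adjusted p = 0.0419). Hbb-y read 8.94, 8.52 and 7.77 against 5.94, 6.66 and 5.49. Hbb-bh1 read 8.88, 8.72 and 8.00 against 6.06, 6.82 and 6.49. All 3 knockout samples lay above all 3 wild-type samples for each of these globins. The share of all genes without overlap was not counted for A1. By genotype it was 40.6% in E14 Kupffer cells and 40.2% in E14 liver CD11bhigh macrophages, so such separation is common. The differences of Hbb-y, 2.38 ± 0.83 (adjusted p = 0.111), and of Hbb-bh1, 2.08 ± 0.74 (adjusted p = 0.125), did not pass in the fit over all 80 samples. In a fit of the 6 A1 samples alone both passed (adjusted p = 0.000449 and 0.000169), and that fit called 4 members and 6.46% of all genes.

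Klf1 went the other way in A1, at 4.37, 3.30 and 3.58 in the knockout against 4.74, 5.38 and 4.74, and fell by 1.20 ± 0.30 (limma, adjusted p = 0.00985). Its samples did not overlap either, and the share of all genes without overlap was not counted for A1. With 2 of 9 members called, the share over all genes in this comparison was 3.36%. Both calls depended on single samples. The Hba-x call was lost without wild-type replicate 1 or 3 or knockout replicate 1 or 2, and the Klf1 call without wild-type replicate 2 or knockout replicate 2 or 3. Over the 6 fits that each left out 1 sample, Hba-x stayed between 1.87 and 2.57 and Klf1 between -1.51 and -0.98, with adjusted p up to 0.270 and 0.131. The other 5 members differed by -0.11 (Sptb) to 0.74 (Slc4a1) and were not called.

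Genes of the erythroid lists that moved in knockout A1 fell. Of the 14 transcription factors and receptor 3 fell and none rose, 2 of 13 heme and iron genes fell and 3 of 15 other membrane genes fell. Named after their values were seen, these were Gata1 (-1.41 ± 0.26), Epor (-1.33 ± 0.30), Zfpm1 (-1.09 ± 0.30), the iron reductase gene Steap3 (-1.52 ± 0.22), Cpox (-1.04 ± 0.29), Rhag (-1.24 ± 0.22), Tmod1 (-1.07 ± 0.27) and Icam4 (-1.23 ± 0.36). Macrophage markers moved as well, with 7 of 12 lower and list means of 5.53 to 6.01 in the knockout against 6.87 to 7.39. Among 12 hepatocyte markers, some of which the yolk sac endoderm also makes, Afp (1.92 ± 0.52) and Apoa1 (1.14 ± 0.35) rose, and the list means ran from 3.23 to 4.34 against 2.96 to 3.00. Their part in the globin differences was not tested.

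**Figure D3:**
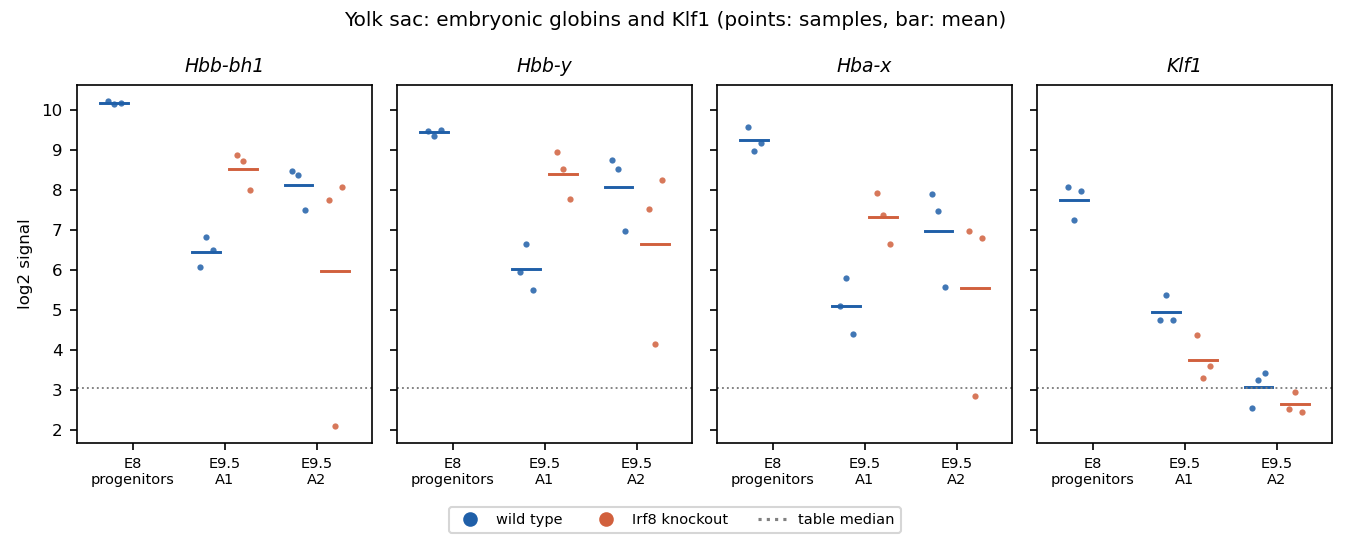
Log2 signal (y axis) of Hbb-bh1, Hbb-y, Hba-x and Klf1 in E8 progenitors and in E9.5 populations A1 and A2 (x axis), with points for samples, bars for means, wild type in blue, knockout in orange and the dotted line at the table median. The 3 knockout A1 samples lie above the 3 wild-type ones for the globins and below them for Klf1, and 1 knockout A2 sample lies far below the others for the globins. The share of all genes separated in this way in A1 was not counted.

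In A2, none of the 9 members was called between genotypes, where 10.0% of all genes were. Of the 9, 3 had an unadjusted limma p under 0.05 (Hbb-bh1, Hba-x and Slc4a1). The share of all genes at that unadjusted threshold was not counted, so this count is not a result about the members. Wild-type samples read 8.48, 8.38 and 7.50 for Hbb-bh1, 8.75, 8.52 and 6.97 for Hbb-y and 7.89, 7.48 and 5.56 for Hba-x. Knockout replicates 1 and 3 read 7.75 and 8.08, 7.52 and 8.25, and 6.98 and 6.79 for the same genes. Replicate 2 read 2.09, 4.15 and 2.84, so its Hbb-bh1 and Hba-x were below the floor. Its 2 array runs read 2.46 and 1.71 for Hbb-bh1, 4.02 and 4.29 for Hbb-y and 3.02 and 2.65 for Hba-x, so both runs were low. Over all genes tested its correlation with the other knockout A2 samples was 0.984 and 0.982, against 0.979 between those samples. Its 2 runs correlated at 0.9843 with each other, against 0.9839 for replicates 1 and 2. Replicate 2 is an average of 2 arrays and the other samples are 1 array each, so these values are not on a like basis. The Hbb-bh1 difference was -2.15 ± 0.74 with knockout replicate 2 (adjusted p = 0.0506) and -0.20 without it (adjusted p = 0.929).

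Between A1 and A2, Klf1 fell in both genotypes, by 1.88 ± 0.30 in the wild type (limma, adjusted p = 2.13e-06) and by 1.12 ± 0.30 in the knockout (adjusted p = 0.0168). In the wild type it was the only member called by the fit over all samples, where 11.4% of all genes were. Wild-type A2 had higher values of Hbb-y (2.06 ± 0.83), Hba-x (1.87 ± 0.66) and Hbb-bh1 (1.66 ± 0.74), which did not pass (adjusted p = 0.109, 0.0525 and 0.164). In the knockout, Hbb-bh1 was also called, at -2.56 ± 0.74, where 3.77% of all genes were. Without knockout A2 replicate 2 this value was -0.62 (adjusted p = 0.952), and the call was also lost without knockout A1 replicate 1 or 2. The Klf1 call in the knockout was lost without A1 replicate 1 or A2 replicate 1 or 3, with values from -1.34 to -0.81 over the 6 fits.

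E14 Kupffer cells also had both profiles. In the wild type, Slc4a1 read 10.06, 9.86 and 10.03, the highest 3 values of the study for this gene, and Epb42 read 7.03, 7.13 and 7.11, also its highest 3. Sptb read 7.08, 7.43 and 7.70, Trim10 7.06, 7.53 and 7.27, Klf1 5.70, 5.92 and 6.58 and Hbq1b 7.17, 7.36 and 7.26. Embryonic globins were present too. Hbb-y read 9.32, 9.68 and 9.67 and Hba-x 7.68, 8.21 and 8.53, both close in spread, whereas Hbb-bh1 ranged widely at 5.56, 6.30 and 8.12. The macrophage label held: all 12 macrophage markers and all 11 Kupffer cell markers were above the floor in all 3 samples, with Csf1r at a mean of 10.33. Hepatocyte markers were above it for 11 of 12 genes, with list means of 7.59 to 8.08.

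Compared with A2, wild-type E14 Kupffer cells had 6 members higher, where 25.6% of all genes changed. These were the 6 genes of the second profile, from 3.00 ± 0.30 for Klf1 to 6.31 ± 0.38 for Slc4a1 (limma, highest adjusted p of the 6 = 1.94e-12 for Klf1). The embryonic globins were not called, at -1.46 ± 0.74 for Hbb-bh1, 1.47 ± 0.83 for Hbb-y and 1.16 ± 0.66 for Hba-x. Against E14 liver CD11bhigh macrophages all 9 were higher (24.6% of all genes changed), and against E14 kidney CD11bhigh macrophages all 9 (23.4%). Against E14 microglia 8 were higher (22.3%) and against E14 kidney F4/80high macrophages 8 (18.3%). Hbb-y was the member not called in the last 2, at 1.52 ± 0.83 and 1.56 ± 0.93. These comparisons share the same 3 Kupffer samples. Since the members were chosen with earlier results of these data known, their counts and p-values are description. The margin for Hba-x was narrow against microglia (1.95 ± 0.66, adjusted p = 0.0231) and kidney F4/80high (1.99 ± 0.74, adjusted p = 0.0493). The first was lost without microglia replicate 1 or 2 or Kupffer replicate 2 or 3 (1.75 to 2.18) and the second without any 1 of its 5 samples (1.79 to 2.22). Hbb-bh1 against kidney F4/80high, at 3.18 ± 0.83, was lost without kidney replicate 2 (1.21, adjusted p = 0.524).

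Knockout E14 Kupffer cells had lower signals of the membrane genes and of Hbq1b. Sptb read 6.58, 5.80 and 5.94 against 7.08, 7.43 and 7.70 and fell by 1.30 ± 0.28 (limma, adjusted p = 0.000268). Epb42 read 6.32, 6.08 and 5.72 against 7.03, 7.13 and 7.11 and fell by 1.05 ± 0.25 (adjusted p = 0.00116). Slc4a1 read 9.39, 8.94 and 8.40 against 10.06, 9.86 and 10.03 and fell by 1.08 ± 0.38 (adjusted p = 0.0316). Hbq1b read 6.68, 5.96 and 6.14 against 7.17, 7.36 and 7.26 and fell by 1.00 ± 0.38 (adjusted p = 0.0472). On a linear scale these are signals 2.00 to 2.46 times lower. No knockout sample reached a wild-type one, where 40.6% of all genes did not overlap. With 4 of 9 members called, 23.0% of all genes were called in this comparison. The median difference of the 9 was -1.004 against 0.03 over all genes.

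The other 5 members were not called in this comparison. Hbb-y read 8.38, 8.43 and 8.83 in the knockout and Hba-x 7.16, 6.84 and 7.52, and neither overlapped with the wild-type samples given above. Their differences were -1.004 ± 0.83 (adjusted p = 0.446) and -0.96 ± 0.66 (adjusted p = 0.331), with 95% intervals of -2.66 to 0.65 and -2.28 to 0.35. In a fit of these 6 samples alone both passed (adjusted p = 0.000229 and 0.00450), and that fit called 6 members and 27% of all genes. The spread in the full fit is pooled over all groups, and it takes in groups in which these globins varied by several log2 units. Klf1 read 6.05, 5.26 and 5.87 (-0.34 ± 0.30) and Trim10 7.19, 7.03 and 6.32 (-0.44 ± 0.27), both overlapping with the wild type. Hbb-bh1 read 6.36, 6.94 and 7.18 (0.16 ± 0.74), all within the wild-type range.

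Sptb and Epb42 kept their calls whichever of the 6 samples was left out. The calls of Slc4a1 and Hbq1b were lost without any 1 of wild-type replicates 1, 2 and 3 or knockout replicates 2 and 3. Over the 6 fits Slc4a1 stayed between -1.32 and -0.82 and Hbq1b between -1.22 and -0.85, with adjusted p up to 0.198 and 0.170. Hbq1b also missed the threshold under median centring and without the floor, with adjusted p up to 0.0592.

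**Figure D4:**
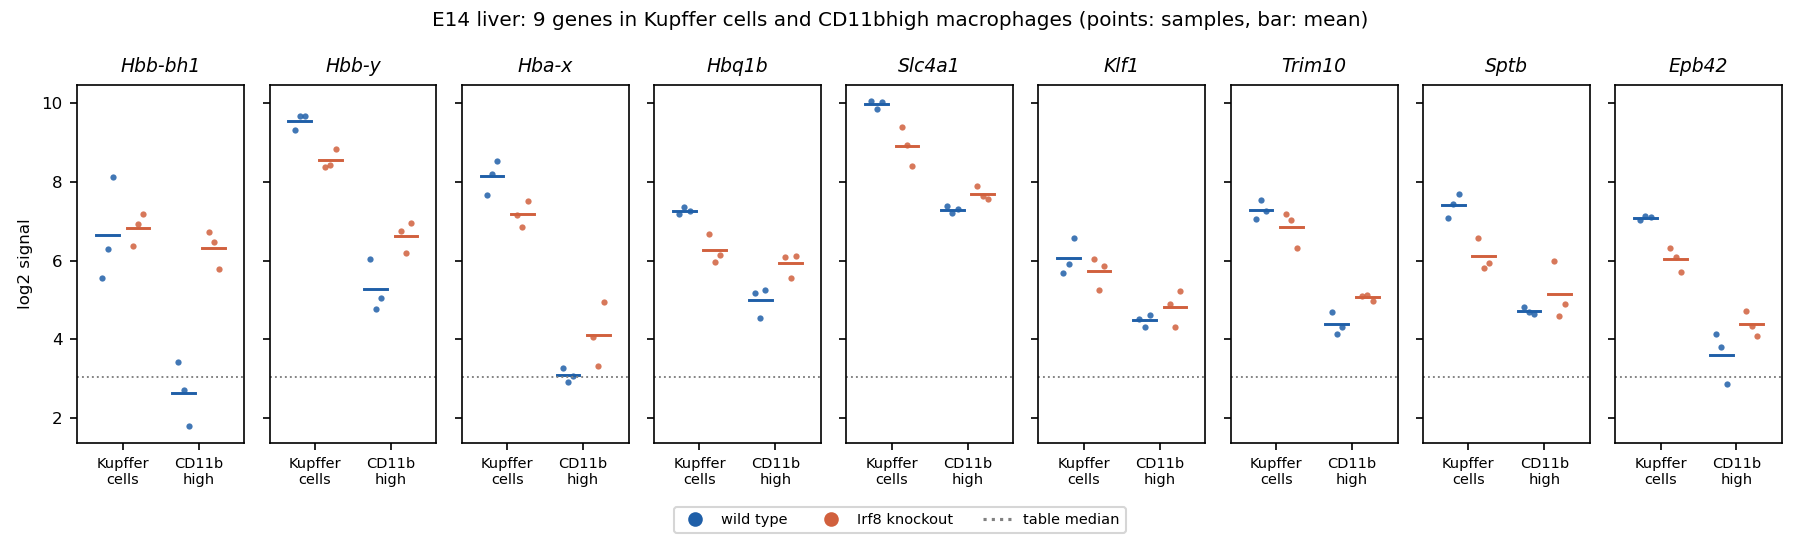
Log2 signal (y axis) of the 9 genes in E14 Kupffer cells and E14 liver CD11bhigh macrophages (x axis), with points for samples, bars for means, wild type in blue, knockout in orange and the dotted line at the table median. In Kupffer cells the knockout lies below the wild type for 6 genes with no overlap, and in CD11bhigh macrophages it lies above it for 6 genes with no overlap, where 40.6% and 40.2% of all genes did not overlap.

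Other genes on the lists of red cell formation, which are not specific to red cells, were lower in knockout Kupffer cells as well. Of 13 heme and iron genes 10 fell and none rose, with a median of -0.81. Ppox and Cpox, enzymes of heme synthesis, fell by 1.53 ± 0.22 and 1.78 ± 0.29, and the mitochondrial glycine carrier Slc25a38 by 1.30 ± 0.23. Of 15 other membrane genes 9 fell and none rose, with a median of -0.92, among them Rhag by 1.33 ± 0.22, Ermap by 1.43 ± 0.27 and Add2 by 1.32 ± 0.26. Of 17 other red cell proteins 7 fell and none rose. Among them the pyruvate kinase gene Pklr fell by 2.00 ± 0.30, Ube2l6 by 1.28 ± 0.32 and Blvrb by 1.02 ± 0.21. Hbq1a fell by 1.08 ± 0.36, and Hbb-bh2 read -0.38 ± 0.24 and was not called. The transcription factors and receptor divided again, with 3 lower and 3 higher of 14. Zbtb7a fell by 0.83 ± 0.21, while Myb rose by 1.30 ± 0.34 and Bcl11a by 0.97 ± 0.26. Myb and Gata2, which also rose (1.14 ± 0.39), stand in the progenitor list below as well, and both are factors of immature cells.

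Markers of other cells moved in the same comparison. Of 12 macrophage markers 9 fell, with list means of 8.03 to 8.27 in the knockout against 9.06 to 9.27, and of 11 Kupffer cell markers 9 fell, with 5.98 to 6.52 against 8.16 to 8.39. All 12 macrophage markers were above the floor in both genotypes. Of 12 hepatocyte markers 4 fell, with 5.58 to 7.26 against 7.59 to 8.08. Of 11 progenitor markers 7 rose and 1 fell, with 6.44 to 6.68 against 5.22 to 5.61, among them Flt3 (2.60 ± 0.34), Cd34 (2.48 ± 0.30) and Kit (2.13 ± 0.31). Among 10 megakaryocyte markers 3 rose and 1 fell, and among 10 mast cell and basophil markers 5 rose and 2 fell. Their part in the erythroid differences was not tested.

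E14 liver CD11bhigh macrophages, sorted from the same organ, had the second profile at a lower level. Every member had a higher mean in the knockout, whereas in Kupffer cells only Hbb-bh1 did. In the wild type Slc4a1 read 7.38, 7.20 and 7.31, Hbq1b 5.19, 4.53 and 5.25, Trim10 4.68, 4.14 and 4.32, Sptb 4.82, 4.68 and 4.63, Klf1 4.52, 4.31 and 4.62 and Epb42 4.13, 3.80 and 2.87. Of the embryonic globins Hbb-y read 6.04, 4.78 and 5.05, Hba-x stayed near the floor at 3.26, 2.92 and 3.08, and Hbb-bh1 at 3.41, 2.71 and 1.79. Hbb-bh1 had the largest difference between the genotypes. In the knockout it read 6.73, 6.46 and 5.80, a rise of 3.69 ± 0.74 (limma, adjusted p = 0.000174), with a 95% interval of 2.22 to 5.17. This call held without any 1 of the 6 samples. Epb42 read 4.73, 4.35 and 4.09 in the knockout and rose by 0.79 ± 0.25 (adjusted p = 0.0247), with samples that overlapped. Its call was lost without wild-type replicate 3 or knockout replicate 1 or 2, with values from 0.43 to 1.06, and also in a fit of these 6 samples alone (adjusted p = 0.0704).

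With 2 of 9 members called there, 14% of all genes were. The other 7 members all had higher means in the knockout, from 0.33 ± 0.30 (Klf1) to 1.34 ± 0.83 (Hbb-y), and none passed. Hbq1b (0.94 ± 0.38) and Trim10 (0.69 ± 0.27) had adjusted p of 0.0945 and 0.0830. In a fit of only these groups 6 members and 26.9% of all genes were called. Of 15 other membrane genes 5 rose and none fell, including Kel (1.10 ± 0.28), Rhag (1.05 ± 0.22) and Add2 (0.89 ± 0.26). Of 17 other red cell proteins Blvrb alone rose (1.03 ± 0.21), and of 13 heme and iron genes none was called (Alad had the lowest adjusted p, 0.233). Macrophage markers divided, with 5 of 12 lower and 3 higher and list means of 6.98 to 7.34 against 7.83 to 7.98. Neutrophil markers were at 10.40 to 10.48 against 9.73 to 9.92, with 3 of 13 higher, and 4 of 11 progenitor markers were lower. Mast cell and basophil markers were at 3.53 to 4.41 against 5.46 to 5.55, with 6 of 10 lower, and hepatocyte list means ran from 5.60 to 6.66 against 5.66 to 5.78. Their part was not tested.

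**Figure D5:**
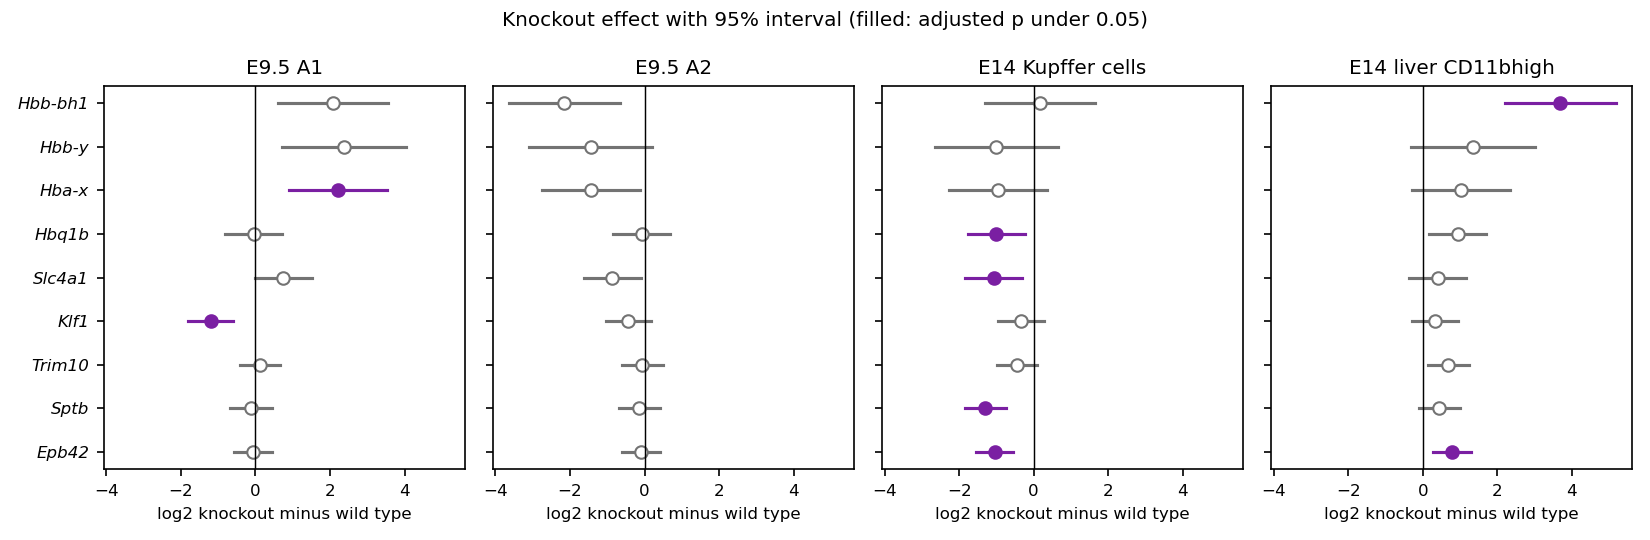
Knockout minus wild type on the log2 scale (x axis) with its 95% interval for each member (y axis) in E9.5 A1, E9.5 A2, E14 Kupffer cells and E14 liver CD11bhigh macrophages. Filled points have a limma adjusted p under 0.05: Hba-x and Klf1 in A1, Hbq1b, Slc4a1, Sptb and Epb42 in Kupffer cells, and Hbb-bh1 and Epb42 in CD11bhigh macrophages.

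The knockout effects in the E14 liver populations were compared directly, as that of Kupffer cells minus that of CD11bhigh macrophages. This tests whether the effects differ, not whether their signs are opposite. Of the 9 members 6 differed, all with the lower effect in Kupffer cells, where 17.9% of all genes differed. Epb42 alone was called by genotype in both populations, with opposite signs. Hbb-bh1 had a higher mean in the knockout of both, and in Kupffer cells its means were 6.83 and 6.66. Epb42 had a difference of effects of -1.84 ± 0.36 (limma, adjusted p = 8.94e-05), Sptb -1.74 ± 0.39, Hbq1b -1.94 ± 0.54, Hbb-bh1 -3.53 ± 1.05, Trim10 -1.13 ± 0.38 and Slc4a1 -1.48 ± 0.54. The first 3 held without any 1 of the 12 samples. The Slc4a1 call was lost in 11 of those 12 fits (-1.72 to -1.22) and the Trim10 call in 6 (-1.30 to -0.86). The Hbb-bh1 call was lost only without wild-type Kupffer replicate 3, its high sample (-2.80, adjusted p = 0.0679). Against E14 microglia, the difference of effects was called for Sptb alone (-1.26 ± 0.39, adjusted p = 0.0296), where 8.88% of all genes differed, and it was lost in 8 of 12 fits (-1.53 to -1.06). Both tests use the same Kupffer samples.

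For the yolk sac populations the knockout effect of A1 minus that of A2 was 4.23 ± 1.05 for Hbb-bh1 (limma, adjusted p = 0.0147) and 3.66 ± 0.93 for Hba-x (adjusted p = 0.0188), where 1.66% of all genes differed. Without knockout A2 replicate 2 these were 2.28 (adjusted p = 0.225) and 2.31 (adjusted p = 0.231), and neither was called. The Hba-x call was also lost without A1 wild-type replicate 3, A1 knockout replicate 1 or A2 wild-type replicate 1 or 2.

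Microglia and kidney F4/80high macrophages at E14 had Hbb-y and Hba-x with low values of the second profile. In wild-type microglia Hbb-y read 8.43, 8.01 and 7.66 and Hba-x 5.87, 6.20 and 6.49. Knockout microglia read 8.97, 8.35 and 8.91 for Hbb-y and 7.10, 5.67 and 6.63 for Hba-x. Epb42 in the same 6 samples lay between 1.97 and 2.25, under the floor, and Trim10 between 2.12 and 2.96. Of the second profile, Slc4a1 was above the floor in all 3 wild-type microglia samples, at 4.50, 4.17 and 4.04, and Sptb in 2 of them, at 3.13 and 3.80. Kidney F4/80high macrophages read 7.37 and 8.62 for Hbb-y in the wild type and 6.72, 9.27 and 9.44 in the knockout, and Hba-x read 6.18 and 6.13 against 5.79, 7.11 and 7.47. Hbb-bh1 was uneven there, at 5.45 and 1.52 in the wild type and 4.42, 1.64 and 5.60 in the knockout. It was nearer the floor in microglia, at 3.49, 2.07 and 3.40 against 4.14, 3.58 and 4.04. So Hbb-y was above the floor in all 11 samples of these populations and Hbb-bh1 in 8.

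Kidney CD11bhigh macrophages at E14 had 1 sample with high embryonic globin in each genotype. Wild-type Hbb-y read 8.73, 4.43 and 2.34 and Hba-x 5.57, 1.94 and 2.11. Knockout Hbb-y read 5.41, 3.38 and 9.09 and Hba-x 2.44, 2.12 and 5.99. Hbb-bh1 was below the floor in all 6 samples. The high samples, wild-type replicate 1 and knockout replicate 3, were high for Hbb-y and Hba-x together.

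None of the 9 members was called by genotype in E14 microglia (14.3% of all genes called), E14 kidney F4/80high (1.97%) or E14 kidney CD11bhigh macrophages (14%). At an unadjusted limma p under 0.05 there were 0 in microglia, 1 in kidney F4/80high (Trim10, -0.88 ± 0.30) and 2 in kidney CD11bhigh (Klf1, -0.69 ± 0.30, and Sptb, -0.69 ± 0.28), all close to the floor. The share of all genes at that unadjusted threshold was not counted here either. The intervals were wide for the globins: for Hbb-y they ran from -0.94 to 2.37 in microglia and from -1.37 to 2.33 in kidney F4/80high.

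In adult tissue the members were near or under the floor. Of 36 adult samples, 0 were above it for Hbb-bh1 and Hba-x, 2 for Hbb-y, 1 for Trim10, 1 for Epb42, 5 for Klf1, 9 for Hbq1b, 14 for Sptb and 16 for Slc4a1. Median adult signals lay between 1.81 (Hbb-bh1) and 2.99 (Slc4a1). The highest adult value of any member was 5.37, for Slc4a1 in replicate 1 of wild-type kidney CD11bhigh macrophages, while the median of Slc4a1 over the 36 was 2.99. From E14 to adult Kupffer cells all 9 fell, in the wild type (30.0% of all genes changed) and in the knockout (47.5%). These counts too are description, for members chosen with earlier results of these data known. Wild-type differences ran from -3.49 ± 0.30 (Klf1) to -7.53 ± 0.83 (Hbb-y), and knockout ones from -2.81 ± 0.38 (Hbq1b) to -6.38 ± 0.83 (Hbb-y). Since adult signals are at the floor, these differences may understate the change.

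No member was called by genotype in any of the 6 adult populations, and none of these 54 gene tests had an unadjusted limma p under 0.05. The shares of all genes called were 14.6% in microglia, 11.9% in Kupffer cells, 16.8% in liver CD11bhigh, 3.56% in kidney F4/80high, 13.6% in kidney CD11bhigh macrophages and 27% in Langerhans cells.

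The genes most like each profile were found over the 27 group means. Closest to the mean of the 3 embryonic globins were Bex1 (Pearson r = 0.921), Cinp (0.905), Ubac1 (0.903), Metap2 (0.903) and Bex2 (0.902). Bex1 averaged 8.87 in E8 progenitors, 7.51 in wild-type A1, 6.80 in wild-type E14 Kupffer cells and 4.39 in wild-type E14 microglia. Closest to the mean of Slc4a1, Klf1, Trim10, Sptb and Epb42 were 5430401H09Rik (0.984), Pkhd1l1 (0.983), Nxpe2 (0.982), Kel (0.977) and Ermap (0.977). Kel and Ermap encode blood group proteins of the red cell membrane. Nxpe2 averaged 7.62 in E8 progenitors and 7.33 in wild-type E14 Kupffer cells, against 2.52 in A1 and 2.71 in E14 microglia of the wild type.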

How the data were processed

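RNA of FACS-sorted cells was amplified and hybridised to 81 Affymetrix arrays of 80 samples, per the labels' protocols. The authors deposited log2 values made by RMA, and Affymetrix Expression Console is the software that the submitters' processing notes list. Versions of the software and the genome build were not given in the sources used here. The 2 array runs of knockout A2 replicate 2 were averaged and counted as 1 sample.

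Of 41345 probes, 25335 were in the probe annotation table given and 23521 of these had 1 gene symbol, 1814 had several and 16010 were not in the table. The gene ID matched the reference gene table for 23328 probes. The brightest probe stood for a gene (22180 genes, 1082 with more than 1 probe). Genes above the 50th percentile of the table (3.041) in at least 2 arrays were tested (17099). Group means over all 80 samples were fitted with limma 3.58.1 in R 4.3.3, using eBayes with a trend, 53 residual degrees of freedom (prior degrees of freedom: median 9.09), and Benjamini-Hochberg adjustment over all genes tested, with a threshold of 0.05. Differences are given ± SE with 95% intervals, and limma gave every adjusted p. Tables and plots used Python 3.11.15, pandas 2.3.3, numpy 2.4.6 and matplotlib 3.10.9. On simulated data with 100 genes shifted, the Kupffer cell comparison of genotypes at E14 found 65% at a shift of 1 log2 unit and 98% at a shift of 2. The E14 kidney F4/80high comparison, with 2 wild-type samples, called 42% and 96%. The simulation drew genes from all those tested and gave each gene 1 spread over all groups. Spreads of the members were unequal, with an SD of Hbb-bh1 of 0.04 in E8 progenitors and 3.37 in knockout A2. So these shares do not measure the power for the members.

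Beside the 9 members, the genes named are the 3 with the smallest adjusted p of each erythroid list in the A1 minus E8 and E14 Kupffer genotype comparisons and the 5 most like each profile, and others are marker genes or were named after their values were seen. The members and lists were chosen with earlier results of these data known. Alternatives were array weights, only the groups compared, no floor, a higher floor (5.269, the 75th percentile), median centring, quantile normalization, the mean over probes, each array run alone, a replicate block and each sample left out. Same-numbered samples deviated together in every pair (correlation over 0.1) in 0 of 23 comparisons, with correlations from -0.176 to 0.151, so the numbers were not taken as pairs.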

Additional observations from a re-analysis of the deposited data

Results flagged for a closer look

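The knockout effect differed between populations in 9 tests of the difference itself, fitted with limma over all 80 samples. Over all genes, 17.9% differed in Kupffer cells minus CD11bhigh macrophages, 8.88% in Kupffer cells minus microglia and 1.66% in A1 minus A2. In E14 Kupffer cells minus E14 liver CD11bhigh macrophages it was -1.84 ± 0.36 for Epb42 (adjusted p = 8.94e-05), -1.74 ± 0.39 for Sptb (adjusted p = 0.000742) and -1.94 ± 0.54 for Hbq1b (adjusted p = 0.00640), all on the log2 scale. For Hbb-bh1 it was -3.53 ± 1.05 (adjusted p = 0.0111), for Trim10 -1.13 ± 0.38 (adjusted p = 0.0299) and for Slc4a1 -1.48 ± 0.54 (adjusted p = 0.0462). Of 12 fits that each left out 1 sample, the Slc4a1 call was lost in 11, the Trim10 call in 6 and the Hbb-bh1 call in 1. In E14 Kupffer cells minus E14 microglia it was -1.26 ± 0.39 for Sptb (adjusted p = 0.0296), a call lost in 8 of 12 such fits. In A1 minus A2 it was 4.23 ± 1.05 for Hbb-bh1 (adjusted p = 0.0147) and 3.66 ± 0.93 for Hba-x (adjusted p = 0.0188), and both of these fell below the threshold without knockout A2 replicate 2.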

How the results depend on the processing

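Across 87 calls of a member in a comparison, no alternative reversed a direction, but several could not have done so. Each member had 1 probe of its own, so the mean over probes left its signals unchanged. A changed floor, or a fit of only the groups compared, left the difference unchanged and altered only its test. Using each array run alone changed differences only in comparisons with knockout A2. The counts that follow include these settings. Of 870 values under alternatives that kept all samples, 856 stayed on their side of the threshold and 14 lost the call, and of 568 values that left out 1 sample, 500 kept it and 68 lost it. Counts of members called moved by over 1.5 times, or from or to 0, as follows. With array weights they were 4 for A2 knockout minus wild type, 4 for E14 liver CD11bhigh, 1 for E14 kidney F4/80high, 4 and 5 for A2 minus A1 in wild type and knockout, 3 for the Kupffer minus microglia difference of effects and 4 for the A1 minus A2 one. With only the groups compared in the fit they were 4 for A1, 1 for E14 microglia, 6 for E14 liver CD11bhigh, 1 for adult microglia, 4 and 0 for A2 minus A1 in wild type and knockout, 4 for Kupffer minus microglia and 0 for A1 minus A2. For A2 knockout minus wild type the count was 1 under quantile normalization, median centring, the floor at the 75th percentile and the second array run. For A2 minus A1 in the wild type it was 2 under median centring, the 75th percentile floor and the first array run. Without the floor it was 1 for A1, and under quantile normalization 2 for Kupffer minus microglia. The cause was not tested. Fitting only the groups compared also raised the share of all genes called in A1, E14 Kupffer cells and E14 liver CD11bhigh by genotype. For the other comparisons and settings that share was not counted, so a larger count of members is not a result about the members. Smaller moves were also seen. With only the groups compared, E14 Kupffer cells by genotype went from 4 to 6 (Hbb-y and Hba-x added), Kupffer minus A2 from 6 to 8, Kupffer minus microglia and minus kidney F4/80high from 8 to 9, and the Kupffer minus CD11bhigh difference of effects from 6 to 8. Array weights gave 3 for A1 and 7 for that difference of effects. Median centring or no floor gave 3 for E14 Kupffer cells (Hbq1b lost), 5 for that difference (Slc4a1 lost) and 7 for Kupffer minus kidney F4/80high (Hba-x lost), which was also 7 with the second array run. With the replicate block 1 member was called for A2 knockout minus wild type (Hbb-bh1, -2.15, adjusted p = 0.0446), and Hba-x in Kupffer cells minus kidney F4/80high was lost, which changed no other call of a member. Leaving out 1 sample gave counts of 0 to 1 for A1, 0 to 2 for A2, 2 to 4 for E14 Kupffer cells, 1 to 2 for E14 liver CD11bhigh, 0 to 1 for E14 kidney F4/80high, 0 to 2 for E14 kidney CD11bhigh, 1 to 2 and 0 to 2 for A2 minus A1 in wild type and knockout, 0 to 1 for Kupffer minus microglia and 0 to 3 for A1 minus A2. Signals near the floor limit what the adult and kidney groups can show.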
